A study of Mus musculus with 2 samples.

Results

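The 10 genes described here encode proteins of the actin cytoskeleton and Srf, a transcription factor that acts on many of them. They were measured in mDE6, a line of odontogenic epithelial cells from the mouse, with and without CHIR99021. CHIR99021 is an inhibitor of GSK-3, the kinase that marks β-catenin for degradation, so the compound is used to activate the β-catenin pathway. The members were Actb, Actg1, Acta2, Tagln, Cnn1, Cnn2, Myl9, Tpm1, Vcl and Srf, taken by gene name from the array annotation. They were represented by 21 probes of 56605 on the array, and these 10 gene names were among 37074 in all. The control cells carried a DMSO vehicle and the treated cells CHIR99021, both for 6 h in the same cell line, and no other agent or allele was labelled. The dose is written as 5 mM in the sample labels, while the methods of the study give the same number in μM. Each condition was 1 hybridisation on a 1-colour mouse array, so no value below has a replicate check and no p-value is given. Both arrays lay on the same slide, so the place of an array on it and the treatment cannot be told apart.

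Actin is held in cells as monomers and as filaments, and filaments are bundled, tensed and anchored by tropomyosins, calponins, myosin light chains and vinculin. Serum response factor, encoded by Srf, binds a short A/T-rich element called the CArG box and works with 2 families of cofactors. The myocardin-related factors bind actin monomers and are released to act on cytoskeletal genes as monomers are used up in filaments, and the ternary complex factors Elk1, Elk3 and Elk4 act with it on immediate early growth-response genes. Most of the 10 genes are textbook targets of this circuit, and Srf is itself among its targets.

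The promoters of the members were searched for the element to which serum response factor binds, and stretches with a match are shown. In the RefSeq promoter table of GRCm38.p6, each window runs from 250 bases before to 50 bases after a transcript start, and 8 of the 10 members had an entry. Actb and Tagln had none. A CArG box (CC, then 6 of A or T, then GG, a motif that reads alike on both strands) lay in the windows of 5 of these 8 genes, against 535 of 32851 windows in all (1.63%). Capitals mark the boxes in the stretches below, each written 5′ to 3′ on the strand of the gene.

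Srf, chr17:46556195-46556264, minus strand: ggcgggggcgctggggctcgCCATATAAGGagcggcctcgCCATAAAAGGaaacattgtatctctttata
Cnn2, chr10:79988524-79988573, plus strand: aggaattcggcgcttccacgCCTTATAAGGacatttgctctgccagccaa
Myl9, chr2:156775283-156775332, plus strand: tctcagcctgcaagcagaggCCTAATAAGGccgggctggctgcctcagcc
Actg1, chr11:120348556-120348605, minus strand: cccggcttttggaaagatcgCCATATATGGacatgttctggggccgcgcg
Vcl, chr14:20929151-20929200, plus strand: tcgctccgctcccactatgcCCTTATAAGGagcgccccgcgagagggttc

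Srf held 2 boxes, which began at positions -82 and -62 from the transcript start, and only 6 of all windows held more than 1. The box of Cnn2 began at -56, that of Actg1 at -90, that of Myl9 at -161 and that of Vcl at -227. The same 10 letters formed the box in Cnn2 and in Vcl, which were measured on opposite sides of a ratio of 1, as given later. The windows of Acta2, Cnn1 and Tpm1 held no exact box. With 1 mismatch allowed, 7 of the 8 members had a match, all but Cnn1, and 21.1% of all windows did. The Acta2 window then held 2, shown next in capitals.

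Acta2, chr19:34255378-34255477, minus strand: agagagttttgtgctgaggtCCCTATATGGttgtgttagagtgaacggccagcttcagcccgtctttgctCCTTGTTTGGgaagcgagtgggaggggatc

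The heptamer CTTTGAT, a core recognised by the β-catenin partners of the LEF/TCF family, was searched on both strands. It occurred in none of the 8 windows and in 3.73% of all windows. These matches describe letters in a short window and not binding.

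**Figure D1:**
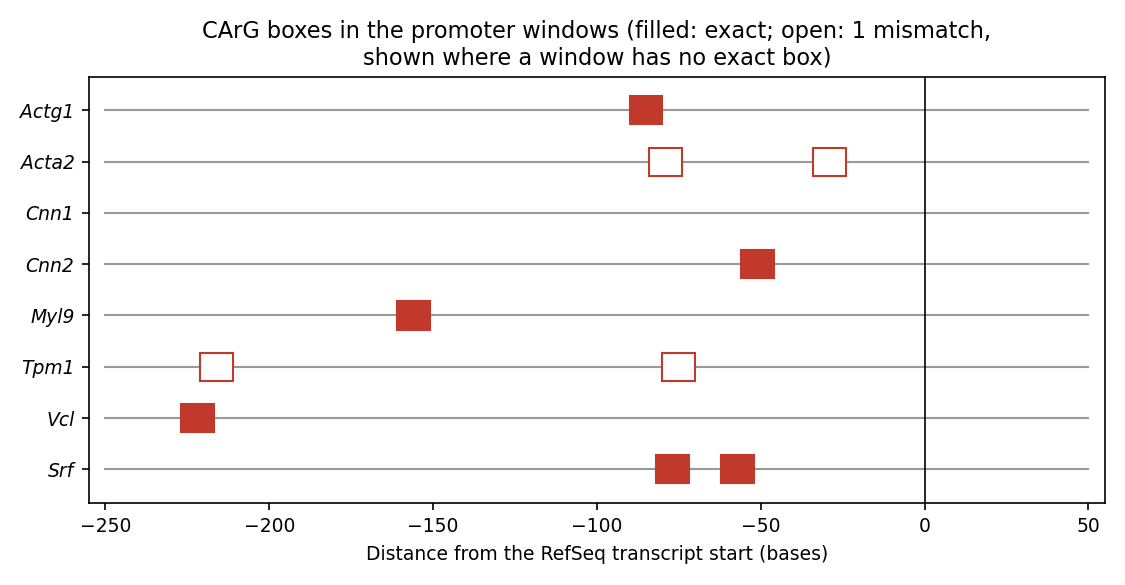
Positions of CArG boxes in the promoter windows of 8 members, in bases from the RefSeq transcript start (vertical line). Filled blocks are exact boxes, held by 5 genes, and open blocks are boxes with 1 mismatch, drawn for Acta2 and Tpm1 only, which had no exact box. The 2 boxes of Srf lie close together, and the row of Cnn1 is empty.

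Of 59305 spots that were not controls, 49.8% carried the flag of a signal well above background in the control and 48.3% with CHIR99021, which is the flag of the image analysis software that marks a signal clearly over its local background. Signals were divided by the 75th percentile of each array (486.7 and 469.2), and the 28066 probes so marked in either condition were kept for comparison and are called tested probes. Of the 21 member probes, 19 were well above background on both arrays. The other 2, a second Myl9 probe and another Acta2 probe, were not well above background on either array and give no ratio. A ratio is CHIR99021 over control after scaling, and a Z-score is the log2 ratio less the mean, over the SD, of the 500 tested probes nearest in signal. The study's methods required a ratio of at most 0.66 with a Z-score of at most -2 for a lower gene, with the sign of the Z-score supplied here. For a higher gene the mirrored limits of at least 1.5 and at least 2 were set here, since the methods name lower genes only. For scale, probes printed 10 times on the array had a median SD of 0.031 between spots on the log2 ratio (220 probes), which is an error within an array and not between cultures.

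In all, 8 of the 10 genes had a lower signal with CHIR99021, by small amounts, and the other 2, Srf and Vcl, a higher one. The median log2 ratio over the 10 genes was -0.22 (a ratio of 0.861), against 0.03 over all tested probes, with each gene read at its probe of highest signal. Of the 28066 tested probes, 46.7% were below 1. Among the 25025 well above background on both arrays, as all read member probes were, 44.6% were. No member met the ratio criterion of 0.66, which 9.68% of tested probes met and 5.61% of those above background on both arrays. None met the ratio and Z-score criteria together, against 2.72% of tested probes. Under some other scalings Cnn2 met both, as given below. A Z-score of at most -2 was found for Cnn2 and Myl9, against 2.94% of tested probes. This rests on how the Z-score is defined, since over all probes no member was past -2, with the median and MAD of the neighbours Actb and Actg1 were as well, and with normexp Myl9 alone was. In the other direction no member met the ratio of 1.5, which 8.24% of tested probes met, or both criteria, which 2.35% met.

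The ratio spreads less among probes of high signal, where the members lie. Over the 7098 tested genes whose signal lay between the lowest and the highest of the members, the median log2 ratio was 0.06, 37.8% were below 1 and 2.01% were at most 0.66. Of these genes, 246 were at least 1.5.

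**Figure D2:**
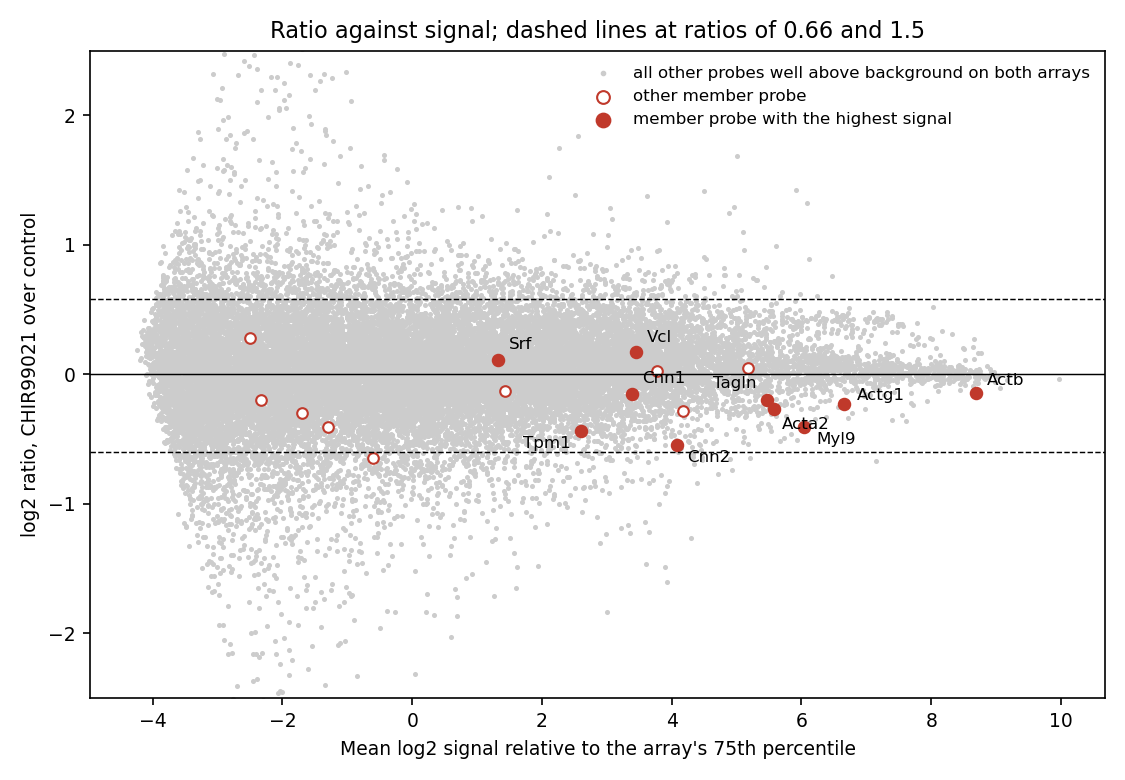
log2 ratio (CHIR99021 over control) against mean log2 signal relative to the 75th percentile, for the 25025 probes well above background on both arrays (grey), of which 35 lie beyond the axis limits. Filled red points are the 10 members at their probe of highest signal and open red points their other probes. Of the filled points, 8 lie below 0, and Srf and Vcl above it.

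Cnn2 and Myl9 stood lowest against probes of like signal. Cnn2 encodes calponin 2, an actin-binding protein that steadies filaments in non-muscle cells. Its probe (A_51_P427663, chr10:79457785-79457844 of mm9, plus strand) gave a signal of 9920.4 in control cells and 6547 with CHIR99021. The scaled ratio came to 0.685 (log2 -0.55, Z-score -2.30). The probe was the seventh lowest of its 500 neighbours in signal. Its ratio of 0.685 lay just above the criterion, and it ranged from 0.643 to 0.717 over the scalings run. It was at most 0.66 after quantile normalisation (0.645), cyclic loess (0.659), no scaling (0.66), normexp background correction (0.653) and in the authors' normalised table (0.643). Under each of these except normexp, Cnn2 met the Z-score criterion as well.

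Myl9 encodes a regulatory light chain of non-muscle and smooth muscle myosin, the subunit whose phosphorylation starts contraction. Its brighter probe (A_51_P308298, chr2:156607301-156607360 of mm9, plus strand) read 36958.5 in control cells and 26837 with CHIR99021. The scaled ratio came to 0.753 (log2 -0.41, Z-score -2.37). It was the fifth lowest of the 500 probes nearest in signal. Over the scalings the ratio ranged from 0.695 to 0.789. The second probe named Myl9 (A_51_P457907), which had no genome position in the annotation, read 5.05 and 5.70, not well above background on either array.

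The cytoplasmic actins supply the bulk of the filaments in non-muscle cells. Actb encodes β-actin. Its probe (A_55_P2112737, chr5:143665422-143665481 of mm9, minus strand) read 211483 in control cells and 184519 with CHIR99021. The scaled ratio came to 0.905 (log2 -0.14, Z-score -1.41). No member probe was saturated on either array.

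Actg1 encodes γ-actin, and its 3 probes differed among themselves. The brightest (A_55_P2008907, chr11:120208409-120208468 of mm9, minus strand) read 53309 in control cells and 43725 with CHIR99021, a ratio of 0.851 (Z-score -1.87). A second probe (A_55_P1985984, chr11:120208361-120208420 of mm9) read 17203 and 17187, a ratio of 1.04. The last (A_66_P136570) read 6579 and 6451, a ratio of 1.02. So the first lay below 1 and the others at or just above it. Under the scalings run, the second ranged from 0.967 to 1.09 and the last from 0.948 to 1.07, on both sides of 1, whereas the first stayed between 0.796 and 0.891. The first 2 probes overlap on the genome by 12 bases. They are shown with that overlap in capitals, because neighbouring stretches of the same gene gave different ratios.

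Actg1, A_55_P2008907: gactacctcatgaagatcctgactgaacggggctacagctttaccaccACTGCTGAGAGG
Actg1, A_55_P1985984: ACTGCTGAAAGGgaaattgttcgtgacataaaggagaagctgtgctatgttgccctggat

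Within the overlap they differ by G9A, counted from 1 at its 5′ end, with the base of the first probe written first. Coding sequences of the actins are much alike, and how far other actin transcripts bound these probes was not tested. No member probe shared 20 bases in a row with any other probe on the array (0 of 21).

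Acta2 encodes the smooth muscle α-actin, also made by contractile fibroblasts and used as their marker. Its brightest probe (A_52_P420504, chr19:34316060-34316119 of mm9, minus strand) read 25383 in control cells and 20357 with CHIR99021. The scaled ratio came to 0.832 (log2 -0.27, Z-score -1.51). The probe A_51_P450957 has a genome span of 3255 bases for its 60 bases (chr19:34322995-34326249), and so crosses an intron.

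Acta2, A_51_P450957: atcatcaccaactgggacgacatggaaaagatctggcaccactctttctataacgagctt

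It read 9715 and 7698, a ratio of 0.822, close to that of the brightest probe. Another probe (A_52_P210078) read 399.1 and 245.9. Its ratio of 0.639 met the ratio criterion, but its Z-score was -1.63, and under the scalings it ranged from 0.616 to 0.686. The 3 Acta2 probes therefore all lay below 1 and spanned 0.38 on the log2 scale. The remaining probe (A_52_P644232), annotated to another transcript, read 7.27 and 5.84, not well above background on either array.

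Tagln encodes transgelin, an actin-bundling protein of smooth muscle and contractile fibroblasts. Its probe (A_51_P450527, chr9:45738097-45738156 of mm9, minus strand) read 23219 in control cells and 19490.2 with CHIR99021. The scaled ratio came to 0.871 (Z-score -1.17). Cnn1, the calponin of smooth muscle, was read by 2 probes. The brighter (A_51_P350817, chr9:21913058-21913117 of mm9, plus strand) went from 5353 to 4648, a ratio of 0.901 (Z-score -0.80). The dimmer (A_55_P2744265) went from 166.5 to 130.1, a ratio of 0.811. Both genes were below 1 under all scalings run, with Tagln between 0.816 and 0.912 and the brighter Cnn1 probe between 0.839 and 0.943.

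Tpm1 encodes α-tropomyosin, which lies along the actin filament and is made in many isoforms, and it was read by 4 probes. The brightest lists 1 transcript in common with each of 2 others and none with A_65_P17289. The brightest (A_66_P105457, chr9:66878844-66878903 of mm9, minus strand) read 3458 in control cells and 2456 with CHIR99021. The scaled ratio came to 0.737 (log2 -0.44, Z-score -1.60). A probe further along the gene (A_55_P2187053) read 1367 and 1207, a ratio of 0.915. The dim probes read 228.9 and 166.6 (A_65_P17289, ratio 0.755) and 103.7 and 86.9 (A_55_P2078680, ratio 0.870). All 4 were below 1, in a range of 0.31 on the log2 scale. Across the 5688 genes with more than 1 tested probe, the median range between probes of a gene was 0.17 and the 90th percentile 0.60, so the ranges within Acta2, Tpm1 and Actg1 (0.28) were above the median and below that percentile.

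Vcl and Srf were the 2 members above 1. Vcl encodes vinculin, which links actin to integrin and cadherin adhesions. Its brighter probe (A_55_P2797124, chr14:21852798-21852856 of mm9, plus strand) read 5020.2 in control cells and 5446 with CHIR99021, a ratio of 1.13 (Z-score 0.28). The dimmer (A_55_P2734317) read 77.7 and 91.2, a ratio of 1.22. Srf had 1 probe (A_51_P100289, chr17:46683788-46683795 of mm9, minus strand), which read 1175 and 1226, a ratio of 1.08 (Z-score 0.27). Its annotated genome span is only 8 bases for a probe of 60 bases, and where the rest aligns was not tested. At this probe, the transcript of the factor itself lay near the centre of probes of like signal. Both genes stayed above 1 under all scalings run, Srf between 1.04 and 1.13 and the brighter Vcl probe between 1.06 and 1.18.

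**Figure D3:**
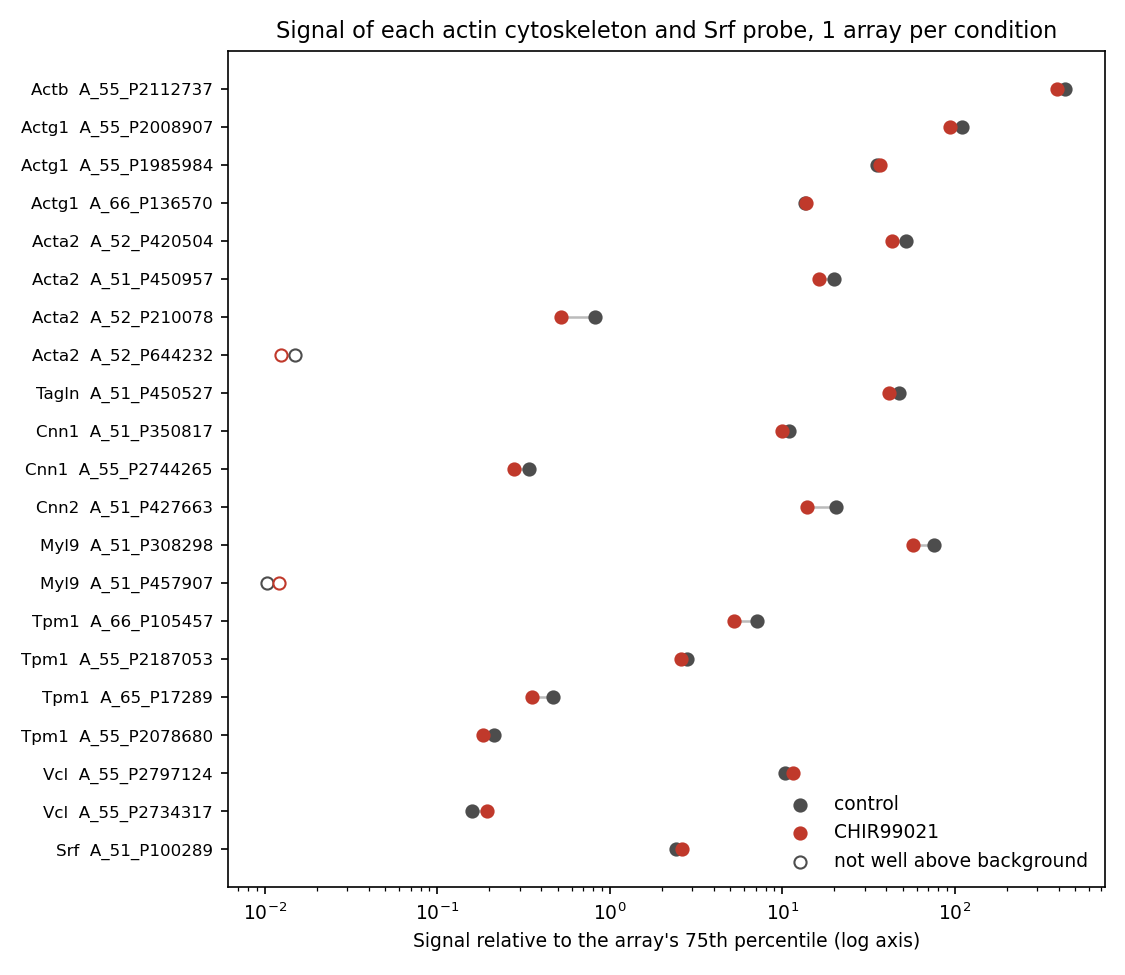
Signal of each of the 21 member probes in units of the array's 75th percentile, on a log axis, in control cells (grey) and with CHIR99021 (red), 1 array each. Open circles are the 2 probes not well above background. The red point lies left of the grey one for all tested probes of Acta2, Tagln, Cnn1, Cnn2, Myl9 and Tpm1, and right of it for Vcl and Srf.

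Under 8 other ways of bringing the arrays to the same scale, the same 8 genes were below 1 and Srf and Vcl above it. Among the alternatives run, the choice of probe changed 1 direction: with the probe of highest ratio, Actg1 was above 1 and 7 of 10 genes below. The 19 tested probes were spread over the array, 10 in the later rows (after row 192 of 384), where 51.6% of all tested probes lay. Their median log2 ratio was -0.20 in the later rows and -0.23 in the earlier.

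**Figure D4:**
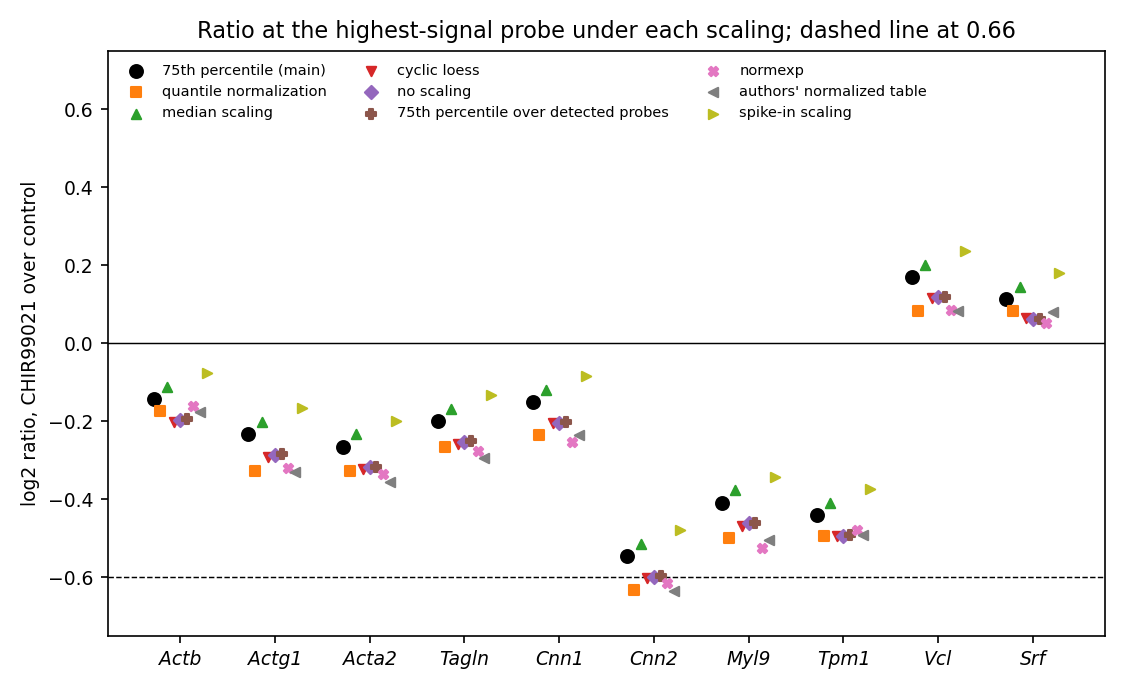
log2 ratio (CHIR99021 over control) of each member at its probe of highest signal, with 75th percentile scaling (black) and 8 alternatives. The dashed line is a ratio of 0.66. Under each, 8 genes lie below 0 and Vcl and Srf above it, and Cnn2 alone reaches the dashed line.

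The wider set of cytoskeletal and adhesion genes known as targets of serum response factor held 54 genes besides the members, of which 51 were tested. Their median log2 ratio was -0.21, close to that of the members, and 32 were below 1 (62.7%, against 46.7% of all tested probes and 44.6% of those above background on both arrays). Of the 51 genes, 50 were above background on both arrays. A ratio of at most 0.66 was found for 6 (11.8%, against 9.68% of all tested probes and 5.61% of those above background on both arrays). All 6 also had a Z-score of at most -2, and 2.72% of all tested probes met both criteria. None reached 1.5, against 8.24% of all tested probes and 246 of the 7098 genes in the members' signal range. Ctgf, a matricellular growth factor, went from 7391 to 1998, a ratio of 0.280. Amotl2, an angiomotin of cell junctions, had a ratio of 0.525. Thbs1, thrombospondin 1, had a ratio of 0.529. Csrp1, a LIM protein of actin bundles, went from 13699 to 7384, a ratio of 0.559. Filip1l had a ratio of 0.565, and Cyr61, a relative of Ctgf, one of 0.631. The ratio of Cyr61 was 0.661, past the limit, with spike-in scaling. Ctgf, Cyr61, Amotl2, Thbs1, Ankrd1 and Nuak2 are also widely used as targets of YAP, a factor that responds to cell tension. Without these 6, 2 of 45 genes (4.44%) were at most 0.66, the median log2 ratio was -0.13 and 27 were below 1. Several of the members' closest relatives are in this list too.

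The relatives of the members, which are other actins, tropomyosins, calponins, transgelins, myosin light chains and catenins, had 15 tested genes of 20. Of these, 13 were below 1 (86.7%, against 46.7% of all tested probes), with a median log2 ratio of -0.22. Ctnna2 was well above background in the control only, and among the other 14, above background on both arrays, 12 were below 1 (85.7%, against 44.6% of such probes), with a median of -0.21. None of the 15 was at most 0.66, against 9.68% of all tested probes and 5.61% of those above background on both arrays. None was at least 1.5, against 8.24% of all tested probes. Among the 7098 genes in the members' signal range, 2.01% were at most 0.66 and 246 genes at least 1.5. Their ratios ran from 0.764 for Acta1, the skeletal muscle α-actin, to 1.14 for Myl4.

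The cofactors were read at 7 genes. Mkl1, the myocardin-related factor also called MRTF-A, read 12472 and 9845, a ratio of 0.819. Mkl2, its relative MRTF-B, read 2048 and 2431, a ratio of 1.23. The ternary complex factors gave ratios of 0.990 for Elk1, 0.852 for Elk3 and 0.985 for Elk4, and Fhl2, a LIM cofactor, one of 0.764. Gata6 had a ratio of 1.06. Elk1 was read at its brighter probe, and its other tested probe had a log2 ratio of 0.16. The brighter probe read 211481 in control cells and 201791 with CHIR99021, as bright as the Actb probe. Elk3 read 3986 and Elk4 316 in control cells. Whether the brighter Elk1 probe reports the Elk1 transcript was not tested. Myocardin itself (Myocd) and Gata4 were not well above background. None of the 7 was at most 0.66, against 9.68% of all tested probes and 5.61% of those above background on both arrays. None was at least 1.5, against 8.24% of all tested probes and 246 of the 7098 genes in the members' signal range.

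The immediate early genes, the other arm of the circuit, spread in both directions. Of 17 tested, all above background on both arrays, 3 were at most 0.66 (17.6%, against 9.68% of all tested probes and 5.61% of those above background on both arrays). At least 1.5 was found for 2, against 8.24% of all tested probes, and the median log2 ratio was 0.14. Klf2, a Krüppel-like factor, went from 257.5 to 52.5, a ratio of 0.211 (Z-score -3.55). Btg2 had a ratio of 0.585 and Fos, the AP-1 subunit, one of 0.622, both with Z-scores above -2. With normexp background correction Klf2 was at 0.382, and Btg2 (0.663) and Fos (0.671) were no longer at most 0.66. Ier3 went from 4926 to 10718, a ratio of 2.26, and Nr4a1, an orphan nuclear receptor, had a ratio of 1.78.

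Regulators of actin itself were divided between the directions. Of 41 tested actin monomer and filament regulators, 18 were below 1 (43.9%, against 46.7% of all tested probes) and the median log2 ratio was 0.04. At most 0.66 was found for 1 of the 41 (2.44%), against 9.68% of all tested probes and 5.61% of those above background on both arrays, and at least 1.5 for 1, against 8.24% of all tested probes. Tmsb4x, thymosin β4, which holds actin monomers, went from 7601 to 4585, a ratio of 0.626. Fmnl2, a formin that extends filaments, went from 1417 to 2302, a ratio of 1.69.

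**Figure D5:**
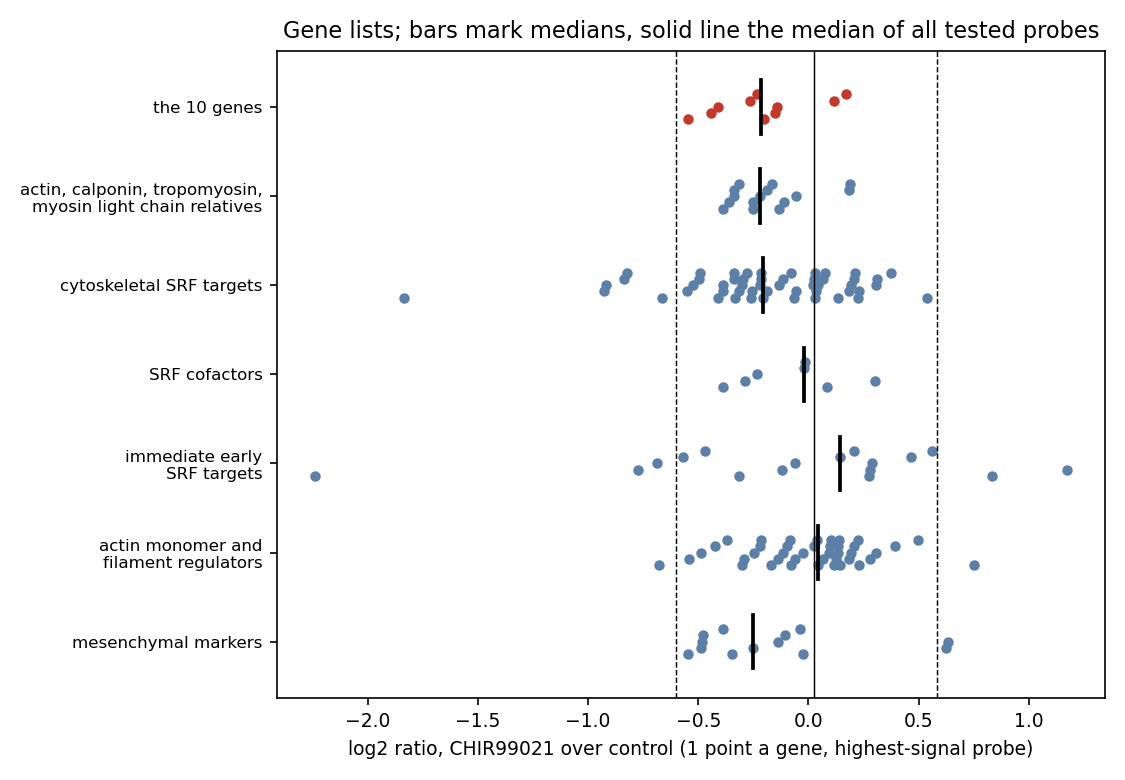
log2 ratio (CHIR99021 over control) of each tested gene at its probe of highest signal, by gene list, with bars at the medians. The solid line is the median of all tested probes (0.03) and the dashed lines are ratios of 0.66 and 1.5. The medians of the 10 genes (-0.22), of their relatives (-0.22), of the cytoskeletal targets (-0.21) and of the mesenchymal markers (-0.25) lie left of the solid line. That of the SRF cofactors (-0.02) lies just left of it.

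Ratios were also set against the promoter windows of those tested genes that had an entry. Of the 18837 tested genes, those without an entry, Actb and Tagln among them, were left out. The 187 tested genes with an exact box had a median log2 ratio of -0.04 and 8.02% were at most 0.66, against 0.02 and 9.21% for the 10676 without. With the members left out, the 182 genes with a box had a median of -0.04 and 8.24% were at most 0.66. Of the 5 members with a box, Actg1, Cnn2 and Myl9 were below 1 and Srf and Vcl above.

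Markers of other cell types were read beside the members, since several members also mark contractile cells. Of 16 odontogenic and epithelial markers, Krt14, Krt17 and Trp63 were among those well above background on both arrays, and 9 were on neither, among them Cdh1, Epcam, Krt8 and the enamel genes Amelx, Ambn and Enam. Krt5 was well above background with CHIR99021 only, reading 5.51 and 165.2, and Cldn1 in the control only, reading 27.96 and 5.97. Trp63 had a ratio of 1.30, Krt14 one of 1.17 and Krt17 one of 0.994. The summed signal of the list was 6.23 in control cells and 7.74 with CHIR99021, in units of the 75th percentile. Most of this sum was Trp63, which read 2306 and 2896. Of the 7 tested epithelial markers, 4 were below 1 (57.1%, against 46.7% of all tested probes), with a median log2 ratio of -0.01. Of 14 mesenchymal and fibroblast markers 13 were well above background on both arrays, all but Lum, and their summed signal in units of the 75th percentile was 1252 in control cells and 1173 with CHIR99021. All 13 were tested, and 11 lay below 1 (84.6%, against 46.7% of all tested probes), with a median log2 ratio of -0.25, like that of the members. Twist1 and Msx1 were the exceptions, at 1.55 and 1.54. Of 14 muscle markers, 6 were above background on both arrays and Des, Lmod1, Myh1, Myocd, Myod1 and Myog on neither, with a sum of 33.4 in control cells and 29.5 with CHIR99021. Cnn1, itself one of the 10 genes, is counted among these 14, and without it 5 of 13 were above background on both arrays and the sums were 22.4 and 19.6. Of these 13 muscle markers 7 were tested, and 5 lay below 1 (71.4%, against 46.7% of all tested probes), with a median log2 ratio of -0.34. Of 9 endothelial and blood markers, 3 were above background on both, with a sum of 4.88 and 5.41. The part of cell type makeup in the ratios was not tested, and fewer cells of a type and less RNA per cell cannot be told apart in such bulk samples.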

How the data were processed

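Total RNA of 1 control and 1 CHIR99021 culture was labelled with Cy3 and hybridised to Agilent mouse arrays whose file header names mm9, and the annotation names no exon or UTR. The authors deposited intensity values per spot from Feature Extraction (10.7.1.1 in the file header, 9.5.1.1 in the submitters' processing notes), background-subtracted by that software, and a normalised intensity table whose method is not given in the sources used here, which was used as an alternative only. Outlier spots (64 and 47) were left out, spots of 1 probe averaged, and each array divided by its 75th percentile. Probes flagged well above background in either condition were kept as tested probes, and each gene was read at its probe with the highest mean signal. The methods do not define the Z-score and print its lower limit without a sign, and the limits for higher genes were set here. With 1 array a group no statistical test was run, and the number of arrays limits the precision.

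Named were all members, the tested cofactors and, in each list, up to 4 genes at each end past 0.66 or 1.5 and above background on both arrays. Cyr61 and Filip1l are named beyond that number, Myl4 and Acta1 as the ends of a range, Ctnna2, Krt5, Cldn1, Ankrd1 and Nuak2 for their flags or overlaps, and so were chosen after their values were seen. The members and lists were chosen with earlier results of these data known, and lists share genes. Some genes and 1 list are not reported here. Alternatives were other scalings, background correction (normexp, offset 50), filters, floors, probe choices, rows and Z-scores, and 1 scaling on 7 spike-in probes that was chosen after seeing the data. Python 3.11.15, pandas 2.3.3, R 4.3.3 and limma 3.58.1 were used.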

Additional observations from a re-analysis of the deposited data

How the results depend on the processing

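No paired analysis was possible because either treatment had a single array. The median log2 ratio of the 10 genes, -0.22, was -0.30 after quantile normalisation, -0.18 with median scaling, -0.28 after cyclic loess, -0.27 without scaling and with the percentile over detected probes, -0.30 with normexp, -0.31 in the authors' table, -0.27 and -0.15 with the probe of lowest and of highest ratio, -0.25 in the earlier rows (4 genes) and -0.15 with spike-in scaling. The number of genes at most 0.66 went from 0 to 1 (Cnn2) after quantile normalisation, cyclic loess, no scaling and normexp and in the authors' table, and to 1 (Acta2) with the probe of lowest ratio. Cnn2 then met both criteria, except with normexp, so 1 gene did. For the cytoskeletal targets the median of -0.21 was -0.17 with median scaling, -0.24 after cyclic loess, -0.26 without scaling and with detected probes, -0.34 and -0.12 with the probe of lowest and highest ratio, -0.29 in the earlier rows and -0.14 with spike-in scaling, and their count of 6 at most 0.66 ranged from 5 to 9. CArG boxes went from 5 to 7 of 8 genes with 1 mismatch. Without a filter on dim probes the median of all probes was 0.18, against 0.03, and the members did not move. A Z-score on the median and MAD put Actb, Actg1, Cnn2 and Myl9 past -2, and a Z-score over all probes put none.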
